A study of Rattus norvegicus with 4 samples.

Results

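Somatostatin (Sst) interneurons are one of the main classes of inhibitory neurons in the cortex, and the nuclei described here were picked from rat orbitofrontal cortex by their Sst transcripts. A nucleus was taken when it had at least 500 genes, at most 5% mitochondrial transcripts, at least 2 unique transcript molecules (UMIs) of Gad1 and Gad2 together, at most 1 of Slc17a7, at least 2 of Sst, none of Pvalb or Vip, and at most 1 of Adarb2. This gate kept 160 of 43903 nuclei, which are called Sst-gated nuclei below. They were 160 of the 3190 nuclei with at least 2 Gad1 and Gad2 UMIs and at most 1 Slc17a7 UMI, here called GABA nuclei. The comparison group was the other 3030 GABA nuclei.

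All tissue came from 8-week-old male wild-type Sprague-Dawley rats treated for 7 days by the intraperitoneal route with either METH (methamphetamine) at 1 mg/kg or saline, in a study of drug sensitization by its title. Orbitofrontal cortex of 4 rats per group was taken under pentobarbital anaesthesia, which both groups share. Each group has 2 libraries, and the labels do not tell how the 4 rats were divided between them, so a p-value between treatments measures the spread between libraries, which may be technical. Values given below in sets of 4 follow the order METH replicate 1, METH replicate 2, saline replicate 1, saline replicate 2. The Sst-gated nuclei numbered 60, 33, 23 and 44 in that order, and their summed counts came to 298321, 164289, 67252 and 228203 UMIs. The median nucleus held 4807, 4873, 2681 and 5083 UMIs, against 4116, 4568, 2336 and 4594 in the other GABA nuclei. Saline replicate 1 was the shallowest library and held the fewest Sst-gated nuclei, although it had the most nuclei in all. No barcode of an Sst-gated nucleus was shared between libraries.

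Cortical Sst interneurons arise in the medial ganglionic eminence, as Pvalb interneurons do, while Vip and Lamp5 interneurons come mostly from the caudal eminence. Most of them place inhibition on the dendrites of pyramidal cells, and Martinotti cells, with axons in layer 1, are the best known type. Excitatory synapses onto them strengthen during repeated firing, a property tied to the postsynaptic protein Elfn1 and to presynaptic group III metabotropic glutamate receptors. Transcription of Sst itself is driven by the cyclic AMP pathway through the cyclic AMP response element (CRE), at which CREB binds.

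That element is shown here because Sst defines these nuclei and because Vgf, a neuropeptide precursor gene with the same 8 letters in its promoter, was among the genes most raised in them. The letters TGACGTCA read the same on both strands and are printed in capitals. Both stretches come from RefSeq promoters of build GRCr8, which run from 250 bases before to 50 after the annotated start. The Sst stretch is chr11:90461508-90461565 on the plus strand, where the motif begins at base 3 after the annotated start, and the Vgf stretch is chr12:25277083-25277150 on the minus strand, where it begins 89 bases before the start.
Sst: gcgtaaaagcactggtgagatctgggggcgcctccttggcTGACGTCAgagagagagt
Vgf: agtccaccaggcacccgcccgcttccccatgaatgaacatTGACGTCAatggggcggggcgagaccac
Of 33469 RefSeq promoters, 1.83% hold these letters within the 300 bases. The share was 2.17% among the 415 promoters of genes called higher in the Sst-gated nuclei, 3.23% among the 589 of genes called lower, and 3.04% among the 8566 matched by symbol from all genes tested. Among the 16 genes named below as most raised, 15 had a promoter in the table and Vgf was the only one with the motif. A match describes the letters in this window and is no evidence of a bound site.

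The genes used by the gate describe it and carry no test against other nuclei, though they were not taken out of the comparison of METH with saline. Sst stood at 815, 663, 877 and 758 CPM (counts per 1000000 UMIs of the summed nuclei) in the Sst-gated nuclei and at 36.9, 29.2, 24.9 and 26.1 CPM in the other GABA nuclei. Of the members, 64 held 2 Sst UMIs, 41 held 3 and 55 held 4 or more. The background of stray Sst transcripts was read in excitatory nuclei, taken as those with at least 2 Slc17a7 UMIs and no Gad1 or Gad2: 0.715%, 0.206%, 0.0838% and 0.3% of them had 2 or more Sst UMIs, at median depths of 6342, 7592, 3724 and 7289 UMIs. Gad1 was at 262 ± 38.3 CPM (SD, n = 4 libraries) and Gad2 at 552 ± 40.1 CPM.

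Grin3a, an NMDA receptor subunit that marks Sst interneurons and was no part of the gate, served to check the label and was high. It stood at 798, 791, 922 and 1069 CPM in the Sst-gated nuclei and at 175, 264, 183 and 221 CPM in the other GABA nuclei. All 4 Sst-gated sums lay above all 4 others, a 4.26-fold difference (log2 fold change 2.09, SE 0.10, adjusted p 7.47e-91, edgeR quasi-likelihood test with the library as a block). It was found in 137 of 160 Sst-gated nuclei, 85.6%, against 27.1% of the other GABA nuclei and 10.1% of excitatory nuclei. With every nucleus thinned to 1500 UMIs and shallower ones left out, which dropped 2 members and 223 others, the shares were 66.5%, 17.2% and 3.11%.

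How levels change across the gate's own threshold is a description, since Sst UMIs chose the members. Among GABA nuclei that met every other condition, 1417 had no Sst UMI, 230 had 1, 64 had 2, 41 had 3 and 55 had 4 or more. In that order the pooled Grin3a level was 267, 547, 709.9, 1166 and 901 CPM, so nuclei just outside the gate, with 1 Sst UMI, lay between the nuclei with none and the members. Man1a1, a mannosidase of glycoprotein processing, ran at 253, 633, 1094, 941 and 1066 CPM. Erbb4, the neuregulin receptor that is abundant in Pvalb and caudal interneurons, ran the other way at 3677, 2006, 911, 173 and 193 CPM. The members with 2 Sst UMIs thus still carried more Erbb4 than those with 3 or more. Kit and Sv2c, which mark Lamp5 interneurons, were at 15.9, 5.21, 0, 0 and 0 CPM and at 41.4, 6.08, 6.4, 0 and 0 CPM. Mitochondrial transcripts made up 0.0906%, 0.0981%, 0.183%, 0.136% and 0.219% of the UMIs in these classes.

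**Figure D1:**
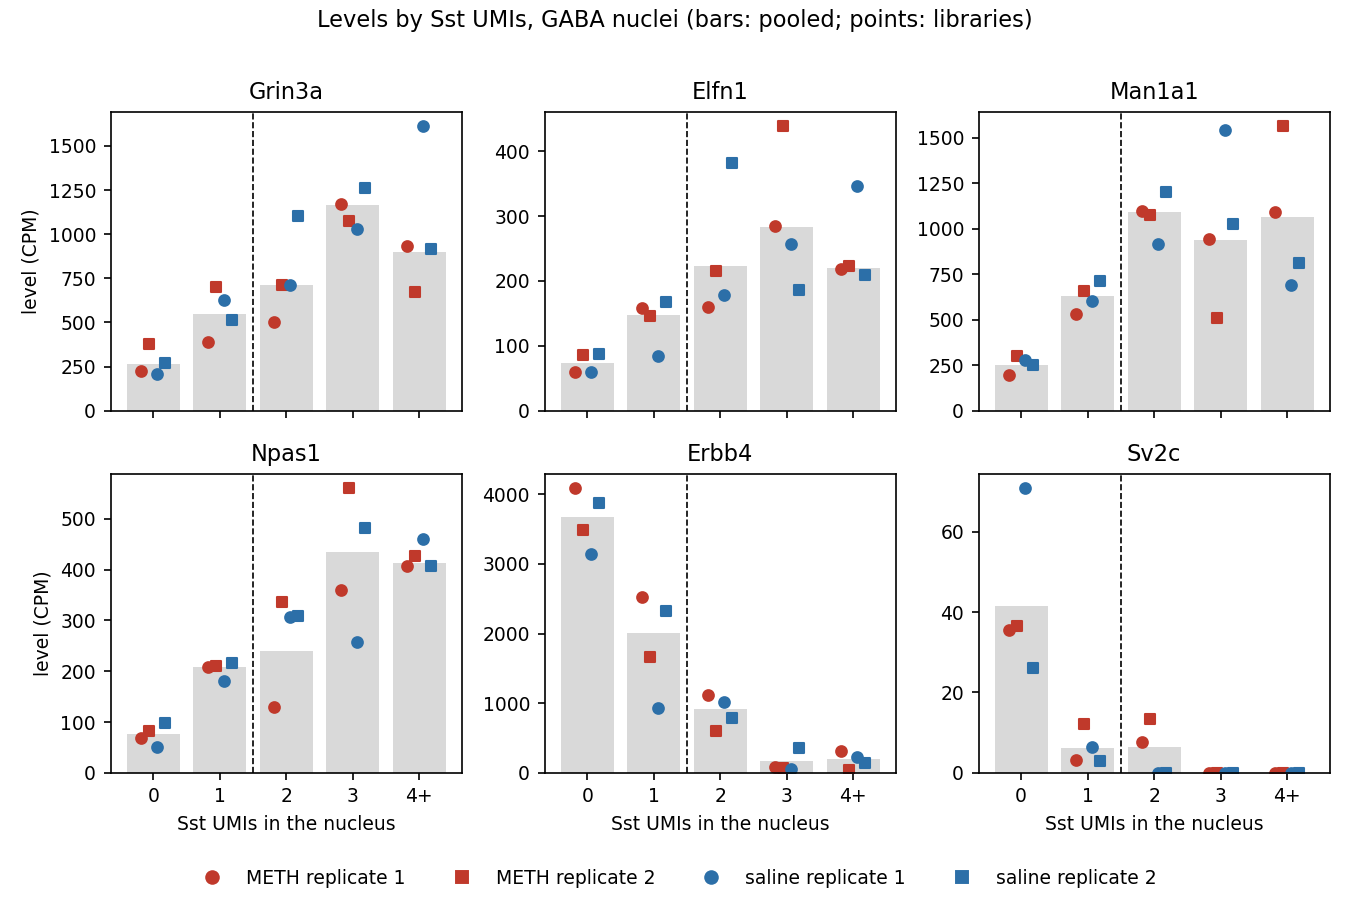
Level in CPM (vertical axes, each its own scale) of 6 genes in GABA nuclei grouped by their number of Sst UMIs (horizontal axis), all meeting the other gate conditions; grey bars are pooled over libraries, points are the 4 libraries (METH red, saline blue), and the dashed line is the gate at 2 UMIs. Grin3a, Elfn1, Man1a1 and Npas1 are lowest in nuclei with no Sst UMI, while Erbb4 falls from 3677 to 193 CPM.

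Against the other GABA nuclei, 9773 genes had counts enough to be tested and 11.7% of them passed an adjusted p of 0.05 in edgeR's quasi-likelihood test: 488 higher (4.99%) and 653 lower (6.68%) in the Sst-gated nuclei. The 7 genes of the gate were left out of this test, and 2040 of the 9773 genes had an unadjusted p under 0.05 in it. Nuclei with Pvalb, Vip or 2 or more Adarb2 UMIs could enter only the comparison group, so the lower side in part describes what the gate left out. Genes that are low in those nuclei can likewise appear on the higher side. With DESeq2 629 genes passed, with 4 or more Sst UMIs required 416, and without METH replicate 1, which holds the most members, 748. When nuclei were gated first and then thinned to 1500 UMIs 520 passed, and when they were thinned before gating, which leaves few members, 139 passed, 12 higher and 127 lower. Of the 1141 genes called above, 841 could be tested in that last setting, and 686 of them kept their direction. Of the genes named below, Elfn1, Pcsk5, Sema3a, Kit and Prox1 kept their direction and were not called in that last setting (adjusted p 0.209, 0.183, 0.226, 0.104 and 0.167). Other named genes could not be tested in it, Ackr3, Atp2b4 and Baiap3 among them. With 4 or more Sst UMIs required, Reln, Baiap3, Calb2 and Prag1 were not called (adjusted p 0.299, 0.376, 0.277 and 0.0631).

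Of 16 tested genes on a list of known Sst interneuron markers, 11 were higher, 2 were lower and the list's median log2 difference was 1.25, against -0.01 over all genes tested. Elfn1, which recruits presynaptic metabotropic receptors at synapses onto Sst cells, was at 208, 274, 223 and 254 CPM against 66.2, 74.4, 54.3 and 78.4 CPM (log2 fold change 1.78, SE 0.15, adjusted p 7.58e-29). Trhde, an enzyme that degrades thyrotropin-releasing hormone, was at 1994, 2088, 1532 and 2178 CPM against 771, 804, 689 and 869 CPM. For both genes no Sst-gated sum fell as low as any sum of other GABA nuclei. Synpr, a synaptic vesicle protein, was 2.52-fold higher (adjusted p 2.05e-38). Reln, the secreted glycoprotein of Martinotti and Lamp5 cells, was 1.82-fold higher (log2 fold change 0.86, SE 0.08, adjusted p 1.46e-22), although it was lower (log2 -0.51, adjusted p 0.296) when nuclei were thinned before gating. Tac1, the substance P precursor found in Pvalb cells, and Calb2, calretinin, were the list genes that fell. Tac1 was at 6.7, 6.09, 14.9 and 0 CPM against 35.6, 19, 23.3 and 27.6 CPM (log2 fold change -2.39, SE 0.58, adjusted p 5.97e-04). The Tac1 difference rests on few UMIs in the Sst-gated nuclei. Calb2 had no UMI in the 160 nuclei and was at least 2.48-fold lower, taking 3 counts over all 4 libraries as the floor. It was not called without METH replicate 1 (adjusted p 0.156) or without saline replicate 2 (0.0611).

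Genes of secreted peptides and their partners were among the most raised. Pdyn, the dynorphin precursor, stood at 33.5, 36.5, 14.9 and 30.7 CPM in the Sst-gated nuclei and at 2.9, 1.31, 0.804 and 1.17 CPM in the others. Every Sst-gated sum exceeded every other sum, a 17.4-fold difference (log2 fold change 4.12, SE 0.55, adjusted p 2.14e-12). It rests on few Pdyn UMIs, found in 20 of the 160 Sst-gated nuclei and fewest in saline replicate 1. Crhbp, the protein that binds corticotropin-releasing hormone, was at 121, 146, 74.3 and 127 CPM against 19.5, 22.9, 18.9 and 22.6 CPM (log2 fold change 2.55, SE 0.23, adjusted p 2.68e-27). Vgf was at 87.2, 42.6, 89.2 and 140.2 CPM against 20.6, 13.8, 14.1 and 24.4 CPM (log2 fold change 2.26, SE 0.26, adjusted p 7.64e-17), and Pcsk5, a convertase that cuts secreted precursors, was 4.58-fold higher (adjusted p 1.49e-94). Of the 7 tested members of the neuropeptide list, Crhbp, Pdyn and Nxph1 were higher and Tac1 was lower, with a list median of 1.05. Sstr1, 1 of 2 tested somatostatin receptors, was at 13.4, 18.3, 14.9 and 8.76 CPM against 1.85, 3.93, 2.41 and 1.76 CPM (log2 fold change 2.47, SE 0.69, adjusted p 0.00479). The Sstr1 difference rests on few UMIs in the Sst-gated nuclei. Crh itself reached 30.2, 12.2, 29.7 and 30.7 CPM against 17.1, 12.5, 8.04 and 9.39 CPM, which did not pass (adjusted p 0.112). Npy, a marker of some Sst cells, had no UMI in any Sst-gated, other GABA or excitatory nucleus, so its level could not be read in these files.

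Transcription factors of the medial ganglionic eminence were called in both directions: of 10 tested, 4 were higher, Satb1, Sox6 and Lhx6 among them, and Mef2c was lower, with a list median of 0.59. Satb1 was at 999, 980.0, 1234 and 1003 CPM against 457, 468, 411 and 489 CPM (log2 fold change 1.17, SE 0.10, adjusted p 2.16e-32). Sox6 was 1.55-fold higher and Lhx6, the factor that specifies cells of this origin, was 1.86-fold higher (adjusted p 0.0173), from a low count of 36.9, 85.2, 29.7 and 57 CPM against 27.4, 33.4, 24.1 and 28.2 CPM. The Lhx6 sum of saline replicate 1 lay within the range of the other nuclei. Among GABA nuclei that met every other gate condition, pooled Sox6 hardly varied with Sst. It was at 1474, 1557, 1576, 1611 and 1483 CPM with 0, 1, 2, 3 and 4 or more Sst UMIs. How far the Sox6 difference comes from nuclei that the gate kept in the comparison group was not tested. Of 7 tested genes of the caudal lineage, Prox1, Nr2f1, Cnr1 and Htr3a were lower. Prox1, a fate factor of caudal interneurons, had 1 UMI in all Sst-gated nuclei, 54.3 (95% interval 9.73 to 2148) times lower by the pooled counts. Npas1 was the exception on that list. Although it is listed with caudal lineage genes, it was at 275, 420.0, 312 and 399 CPM against 92, 107, 75.2 and 121 CPM, with no overlap (log2 fold change 1.79, SE 0.13, adjusted p 9.66e-40).

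Besides Pdyn, Crhbp, Vgf, Pcsk5 and Grin3a, the rule for naming genes took 11 more among the most raised. Tes, a focal adhesion protein, rose 5.95-fold, Man1a1 4.86-fold, Baiap3, which acts in vesicle traffic, 4.43-fold, and Prdm1, a transcriptional repressor, 4.31-fold. Man1a1 stood at 1063, 1083, 1071 and 990.3 CPM against 187, 230.0, 231 and 227 CPM. Unc13c, a vesicle priming protein, was at 741, 669.6, 625 and 889.6 CPM against 141, 219, 154 and 202 CPM (log2 fold change 2.08, SE 0.11, adjusted p 1.15e-82). In both, the lowest Sst-gated sum was well above the highest of the others. Sema3a, a secreted guidance cue, rose 4.1-fold, Ackr3, an atypical chemokine receptor, 4.22-fold, Hpse, heparanase, 4.14-fold, Nid1, a basement membrane protein, 4.12-fold, and Atp2b4, a plasma membrane calcium pump, 4.05-fold. Npsr1, the neuropeptide S receptor, rose 5.05-fold on its sums, but 1 nucleus carried 35 of the 41 UMIs in METH replicate 1 and 1 carried 27 of 28 in saline replicate 2. With each gene capped at 3 UMIs per nucleus its log2 difference was 1.55 (adjusted p 0.0173). The log2 difference was 1.48 without METH replicate 1 and 2.98 without saline replicate 2. It was not called without saline replicate 1 (log2 2.40, adjusted p 0.288) or when nuclei were gated and then thinned (log2 0.90, adjusted p 0.554).

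The genes most reduced included markers of other interneurons. Kit, a receptor tyrosine kinase of Lamp5 and Vip cells, stood at 87, 104, 72.4 and 77.2 CPM in the other GABA nuclei and at 0 in every Sst-gated library. It was at least 21.6-fold lower, and a count of 0 in 160 nuclei allows a share of up to 1.88% of nuclei with a UMI. Egflam, Yjefn3, Tex47 and Prag1 also had no UMI, and were at least 11, 5.91, 5.65 and 5.12-fold lower. Sv2c, a vesicle protein of Lamp5 cells, had 2 UMIs, 75.1 (95% interval 20.8 to 621) times lower by the pooled counts. Col4a4, a collagen chain, had 1 UMI and was 30.8 (95% interval 5.51 to 1219.8) times lower. Pde5a, a cyclic GMP phosphodiesterase, was at 23.5, 0, 0 and 0 CPM against 358, 389.9, 269 and 328 CPM. All 7 of its UMIs in the Sst-gated nuclei came from METH replicate 1, so the fitted fold of 37.2 lower (log2 -5.22) rests on that library. Without it no UMI was left, and the fitted log2 value of -12.06 is no bound. Caln1, a calmodulin-like protein with 8 UMIs, was 36.1-fold lower. Mybpc1, a myosin-binding protein found in some interneurons, was at 0, 0, 0 and 8.76 CPM against 93.3, 70.8, 53.1 and 50.8 CPM, 26 (95% interval 7.19 to 215) times lower. Of 11 tested Pvalb interneuron markers 7 were lower and none higher in edgeR, where 8 had an unadjusted p under 0.05, with a list median of -1.56. Erbb4, which had the smallest p on that list, was at 617, 304, 639 and 394 CPM against 4021, 3914, 3189.5 and 4032 CPM, 8.13-fold lower (log2 fold change -3.02, SE 0.10, adjusted p 1.53e-174). Of 7 tested members each of the Vip and Lamp5 lists, 3 and 5 were lower. The members that were higher were Npas1 on the Vip list and Reln and Eya4 on the Lamp5 list. The list medians were -1.79 and -3.16, or -1.31 and -2.28 with genes at 0 set to their bounds.

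Glutamate receptor genes were called mainly on the higher side. Of 17 tested ionotropic subunits 8 were higher and 2 lower, with a median of 0.18. Grik3, a kainate receptor subunit, stood at 563, 566, 625 and 709.9 CPM against 167, 182, 160.0 and 184 CPM (log2 fold change 1.82, SE 0.11, adjusted p 1.44e-59), without overlap. Grik1, another kainate subunit, was 1.49-fold higher and Gria4, the AMPA subunit of fast interneurons, was 1.45-fold lower (log2 -0.54). Of 6 tested genes on the metabotropic list 4 were higher and none lower in edgeR, with a median of 0.90; these 4 were the only ones with an unadjusted p under 0.05. Grm7, a group III receptor, stood at 2450.4, 1978, 2513 and 2322 CPM against 942, 996, 992 and 978 CPM (log2 fold change 1.24, SE 0.09, adjusted p 3.03e-45). The groups did not overlap. Grm8, of the same group, was 1.47-fold higher, and Elfn1 has been given above.

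Genes of GABA receptors were called mainly on the lower side. Of 13 tested, 7 were lower and 2 higher, with a median of -0.80. Gabrb2 stood at 272, 213, 357 and 206 CPM against 1052, 1084, 1038 and 1040.4 CPM, 4.22-fold lower (log2 fold change -2.08, SE 0.12, adjusted p 2.18e-64). No Sst-gated sum of Gabrb2 reached the range of the others. Gabrg3 and Gabra4 fell by 1.10 and 1.16 on the log2 scale. The 2 that were higher, Gabra3 and Gabbr1, rose 1.68-fold and 1.38-fold. Among genes that make, pack or take up GABA, 8 were tested: Slc32a1, the vesicular GABA transporter, was higher (log2 fold change 1.17, SE 0.40, adjusted p 0.0326), while Abat, the GABA transaminase, and Slc38a1, a glutamine transporter, were lower.

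Of 24 tested potassium channel genes 11 were lower and 1, Kcnd3, was higher. Kcnj3, a G-protein-gated channel, was at 349, 268, 387 and 412 CPM against 1008, 862, 991 and 947 CPM (log2 fold change -1.43, SE 0.11, adjusted p 7.57e-35). Kcnq5, a channel of the M current, was 3.63-fold lower. Kcnc1, the fast delayed rectifier of Pvalb cells, was 2.95-fold and Kcnh1 3.46-fold lower. Of 18 tested sodium, calcium and HCN channel genes, Cacna2d3 and Cacna1e were higher and 4 were lower. The calcium channel subunits Cacna2d3 and Cacna2d1 moved in opposite directions: Cacna2d3 was at 3529.8, 3658, 4015 and 3523 CPM against 928, 1123, 1058 and 1059 CPM, and Cacna2d1 at 60.3, 116, 223 and 57 CPM against 367, 431, 591 and 350.1 CPM. Their log2 differences were 1.81 (SE 0.08) and -2.18 (SE 0.16), with edgeR adjusted p of 8.08e-103 and 9.99e-39. For neither did the groups overlap.

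**Figure D2:**
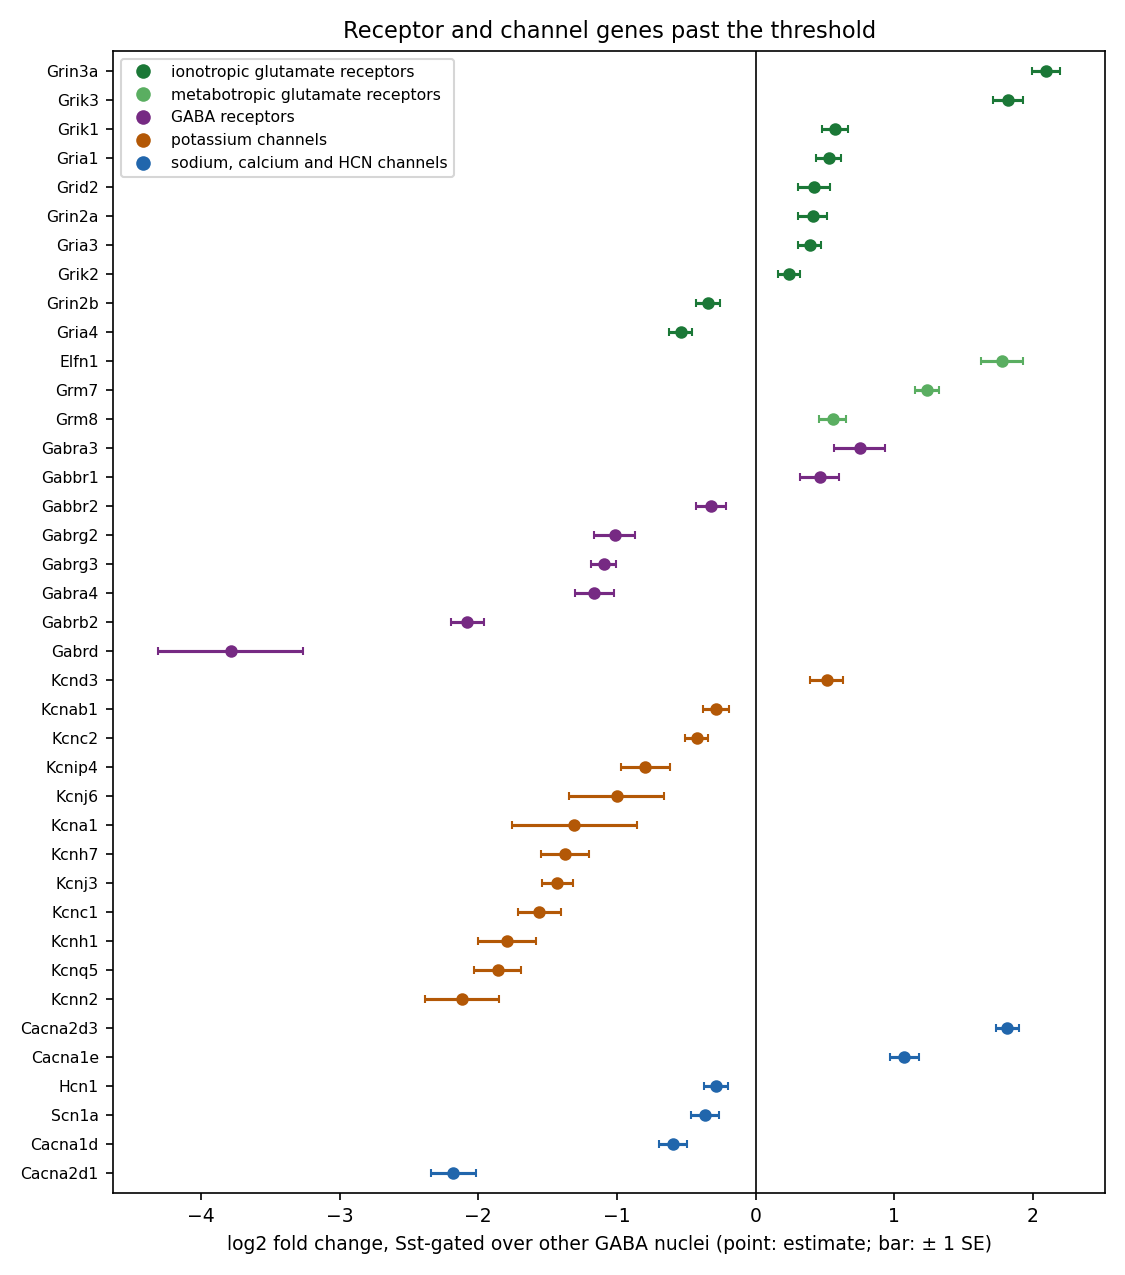
Log2 fold change of the Sst-gated over the other GABA nuclei (horizontal axis; bars are 1 standard error) for receptor and channel genes of 5 lists that passed an adjusted p of 0.05, coloured by list. Most of the glutamate receptor genes shown lie right of 0, with Grin3a at 2.09, and most of the GABA receptor and potassium channel genes shown lie left of it, where Gabrd rests on 3 UMIs in the Sst-gated nuclei.

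Synaptic adhesion genes split, with 9 of 19 tested higher and 5 lower. Cdh9, a classic cadherin, was at 1719.6, 2252, 1665 and 2033 CPM against 457, 574, 450.2 and 590.2 CPM (log2 fold change 1.89, SE 0.09, adjusted p 3.24e-96), and Cdh13 was 2.25-fold higher. Lrrtm4, a postsynaptic organiser, was 2.88-fold lower and Cntnap4, a neurexin relative, 4.16-fold lower. Receptors for monoamines, peptides and acetylcholine were mostly too low to test: 7 of 23, 6 of 19 and 3 of 12 in the files passed the filter. Of those, 4, 3 and 1 were lower and none higher in edgeR, where 4, 4 and 1 had an unadjusted p under 0.05. Over all 9773 genes tested, 4.99% were higher and 6.68% lower, and 2040 had an unadjusted p under 0.05. A gene could pass the filter through the counts of the other nuclei alone. Htr2a fell 3.59-fold, the adrenoceptors Adra1a and Adra1b 1.64-fold and 1.73-fold, and Htr3a 3.47-fold. The orexin receptor Hcrtr2, the mu opioid receptor Oprm1 and the nicotinic subunit Chrna7 were lower by 5.26, 1.49 and 1.48-fold. The tachykinin receptor Tacr3, with 1 UMI in the Sst-gated nuclei, was 9.4 (95% interval 1.66 to 374) times lower by the pooled counts. Drd2 stood at 23.5, 18.3, 0 and 4.38 CPM against 13.4, 14.7, 9.25 and 11.2 CPM and did not pass (adjusted p 0.911).

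Genes of the glucocorticoid response were lower where they passed. Of 7 tested, Nr3c2, Zbtb16, Sgk1 and Errfi1 were lower, none was higher in edgeR, and no other had an unadjusted p under 0.05. Nr3c2, the mineralocorticoid receptor, stood at 114, 103, 74.3 and 83.3 CPM against 394, 393, 326 and 340.1 CPM, 3.73-fold lower with no overlap. Fkbp5, at 10.1, 24.3, 0 and 0 CPM against 15, 20.6, 17.3 and 11.7 CPM, did not pass (adjusted p 0.542). Of 9 tested activity-induced genes, Vgf was higher and Nr4a3, an orphan nuclear receptor with 3 UMIs in the Sst-gated nuclei, was 5.26 (95% interval 1.78 to 25.7) times lower. Fos was too low to test.

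Mitochondrially encoded genes were higher, with 9 of 11 tested called and a list median of 0.80. The summed level of the 13 genes was 1813, 1388, 1606 and 2244 CPM in the Sst-gated nuclei and 1131, 709, 1015 and 1159 CPM in the other GABA nuclei, higher in all 4 libraries. Transcripts of the mitochondrion mark cytoplasm carried along with nuclei, the gate itself asks for Sst molecules, and the classes of 2 or more Sst UMIs had larger mitochondrial shares, as given above. The part of carried-over cytoplasm in any of the raised genes was not tested. Hspa5, a chaperone of the endoplasmic reticulum, and Hsp90ab1 were higher among 7 tested stress genes (2.18-fold and 1.61-fold). Clu, a secreted chaperone on the astrocyte list, was 2.84-fold higher, while Slc4a4 and Gli3 of that list were lower. Summed astrocyte markers were at 519.6, 609, 520.4 and 311 CPM against 657, 765, 724 and 589.9 CPM, with Aldh1l1 at 0, and summed excitatory markers at 704, 706, 922 and 548 CPM against 796, 666, 1004 and 725 CPM. Oligodendrocyte, microglia, striatal and blood lists had 8, 7, 4 and 1 tested members and none called by edgeR, with 1, 0, 1 and 0 at an unadjusted p under 0.05. Camk2a alone of 4 excitatory and Vcan alone of 3 oligodendrocyte precursor markers were called, both lower, and no vascular marker could be tested.

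Set against single neighbouring classes, the Sst-gated nuclei were compared with 20 Pvalb-gated, 319 Vip-gated and 44 Lamp5-gated nuclei. Against Pvalb, 19.6% of 1457 genes tested were called: 157 higher (10.8%) and 128 lower (8.79%). Against Vip it was 16.6% of 5005, with 388 higher (7.75%) and 443 lower (8.85%). Against Lamp5 it was 27.8% of 1480, with 196 higher (13.2%) and 215 lower (14.5%). The Pvalb gate rests on few nuclei, 11 of them in METH replicate 1, and 130 genes passed without that library. DESeq2 called 176, 481 and 289. Of 1321 genes tested in all 3, 65 were higher in the Sst-gated nuclei each time and 35 lower; the 3 comparisons share the Sst-gated sums. Grin3a stood at 32, 0, 0 and 0 CPM in Pvalb-gated, 42.9, 36.4, 17.7 and 35.5 CPM in Vip-gated and 17.6, 31.4, 22.8 and 104 CPM in Lamp5-gated nuclei, below every Sst-gated sum.

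Against Pvalb-gated nuclei, Shisa6, an AMPA receptor partner, was at 1177, 1321, 1175 and 1099.9 CPM and had no UMI in any Pvalb-gated library, at least 48.3-fold higher. Unc13c, Thsd7b, Ryr3, an internal calcium channel, and Npas1 were likewise at 0 there, at least 31, 24.8, 18.5 and 14.1-fold higher. Cntnap5c was at 164, 134, 178 and 131 CPM against 2436, 4732, 2401 and 5024 CPM, 22.8-fold lower, and Pde5a, with its 7 UMIs from METH replicate 1, was 36.9-fold lower. Sgpp2, with 6 UMIs, was 26.4-fold lower (log2 -4.72, and -5.85 without METH replicate 2). Sox6, shared by both classes, was at 1421, 1686, 1710.0 and 1586 CPM and 1474, 2160.1, 0 and 2169.5 CPM and did not pass (log2 fold change 0.04, SE 0.28, adjusted p 0.953).

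Against Vip-gated nuclei, Cdh9 was at 1719.6, 2252, 1665 and 2033 CPM and 23.9, 113, 221 and 51.6 CPM (log2 fold change 4.62, SE 0.43, adjusted p 6.76e-04). Crhbp, the protease Pappa2 and the kinase Cdk15 were 31, 33.3 and 30.4-fold higher (log2 4.95, 5.06 and 4.93). They rest on 4, 6 and 6 UMIs in the Vip-gated nuclei, and without METH replicate 1 the fitted log2 values were 7.64 (no UMI left, so no bound), 6.03 and 6.44. Npsr1, with 2 UMIs in the Vip-gated nuclei, was 60.4 (95% interval 16.2 to 507) times higher by the pooled counts, an interval for counting error alone. In the Sst-gated nuclei 1 nucleus in each library held 35 of 41, 8 of 8, 3 of 3 and 27 of 28 Npsr1 UMIs. Kit and F5, a coagulation factor, had no UMI in the Sst-gated nuclei and were at least 49.9-fold and 14.6-fold lower. Prox1 was 209 (95% interval 37.2 to 8266) times lower. Shisa6, with no UMI in the Pvalb-gated nuclei, was at 768, 817, 583 and 1132 CPM here, 1.42-fold below the Sst-gated level (adjusted p 0.00597).

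Against Lamp5-gated nuclei, Cdh9 was at 35.2, 31.4, 22.8 and 29.7 CPM in them, 62.8-fold below the Sst-gated level. Man1a1 and Shisa6 were 57.8-fold and 53.6-fold higher in the Sst-gated nuclei (log2 5.85, and 6.50 without saline replicate 1; log2 5.74, and 6.48 without METH replicate 2). Spon1, a secreted adhesion protein with 2 UMIs in the Lamp5-gated nuclei, was 65 (95% interval 17.9 to 538) times higher, and Eya4, at 0 there, at least 18-fold higher. Eya4 had been listed with the Lamp5 markers. Sv2c was at 3.35, 6.09, 0 and 0 CPM against 915, 973, 1069.7 and 1083 CPM, 383 (95% interval 105 to 3177) times lower. Kit was at least 88.3-fold and the growth factor receptor Egfr 62-fold lower. Reln, high in both classes, was 1.57-fold lower than in Lamp5-gated nuclei (log2 -0.65, adjusted p 0.0066).

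**Figure D3:**
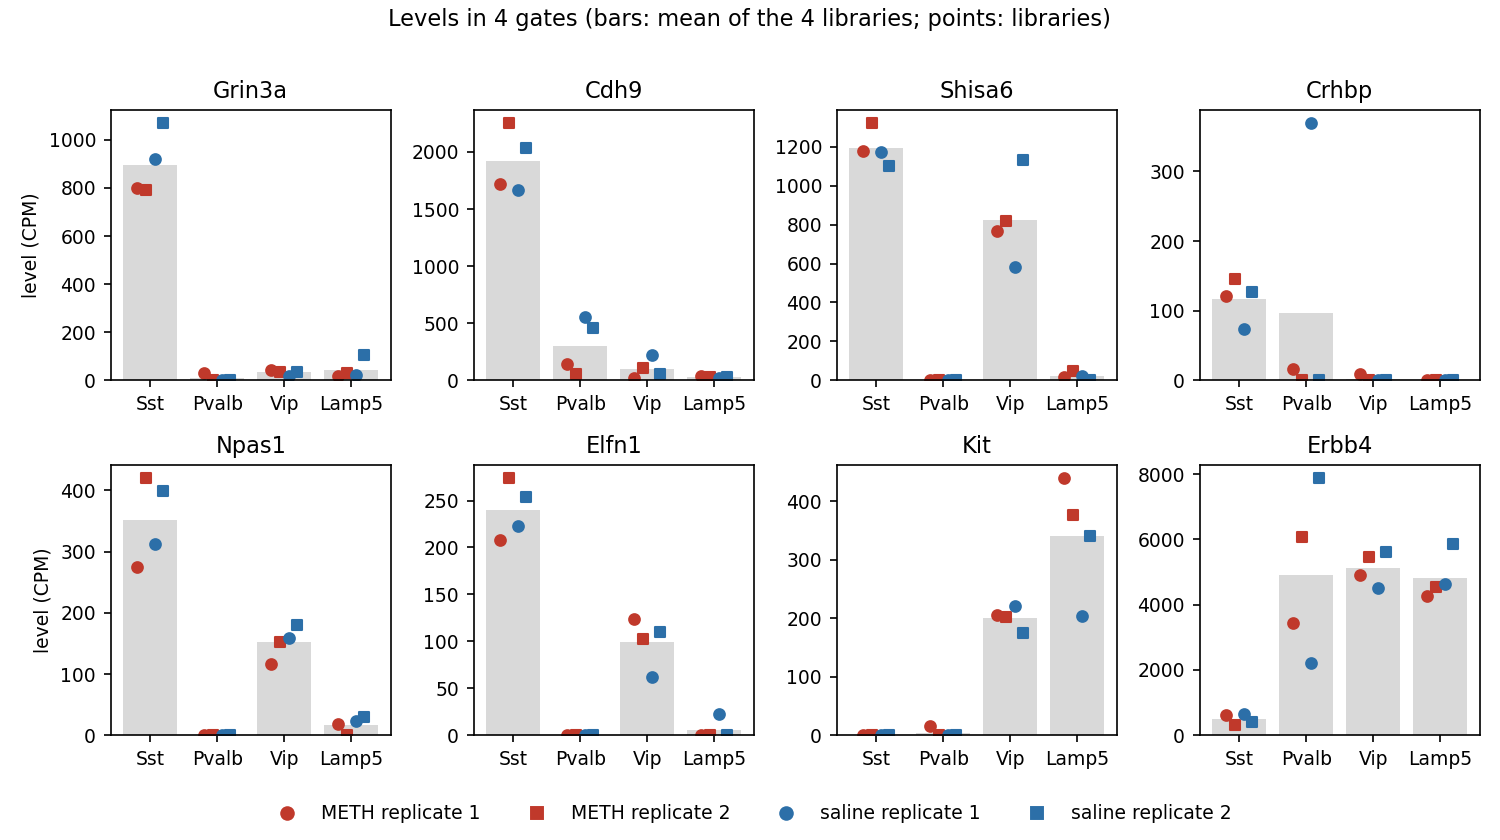
Level in CPM (vertical axes, each its own scale) of 8 genes in Sst-gated, Pvalb-gated, Vip-gated and Lamp5-gated nuclei (horizontal axis); bars are means of 4 libraries and points the libraries (METH red, saline blue). Grin3a and Cdh9 are highest in the Sst gate in every library, Shisa6, Npas1 and Elfn1 are also present in the Vip gate, and Kit is at 0 in the Sst gate.

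The share of members with a UMI differed from gene to gene, and how far it follows level and depth was not tested. Some genes were found in nearly all members: Sox6 in 97.5%, Trhde in 95%, Satb1 in 94.4%, Synpr in 89.4% and Reln in 86.9% of the 160 nuclei. Others were found in part of them. Npas1 was seen in 63.1% (95% interval 55.1% to 70.6%), Elfn1 in 58.1% (95% interval 50.1% to 65.9%), Crhbp in 31.9% (95% interval 24.7% to 39.7%), Hpse in 25.6%, Calb1 in 24.4%, Pdyn in 12.5% (95% interval 7.81% to 18.6%), Crh in 7.5% and Cbln4 in 6.88%. Excitatory nuclei, which are deeper, gave 0.684%, 2.2%, 0.354%, 0.411%, 9.65%, 0.217%, 0.627% and 0.525% for the same 8 genes, and the other GABA nuclei 21.2%, 16.6%, 6.47%, 4.46%, 9.34%, 0.66%, 3.43% and 0.627%. At 1500 UMIs a nucleus Npas1 was found in 39.9% of members and 12% of other GABA nuclei, Crhbp in 12.7% and 3.21%, and Pdyn in 5.06% and 0.249%. These intervals (exact Clopper-Pearson, 95%) cover counting error only, and absence of a UMI does not show absence of the transcript.

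Markers of subtypes overlapped in part. Calb1, found in Martinotti cells, and Hpse were both seen in 9 nuclei, out of 39 with Calb1 and 41 with Hpse. Hpse was thus about as frequent in nuclei with Calb1 (23.1%) as in those without (26.4%). Crhbp was found together with Pdyn in 11 of the 20 nuclei with Pdyn, and nuclei with Crhbp were deeper (median 5172 against 4191 UMIs). Nos1 and Chodl mark the sparse long-range type of Sst neuron. Nos1 was seen in 20 of 160 members and Chodl in 3 of 160, and all 3 nuclei with Chodl also had Nos1. The 5 nuclei with 5 or more Nos1 UMIs, a limit set after the values were seen, held 42 of the 61 Nos1 UMIs and came from 3 libraries (2, 2, 0 and 1). Their pooled Grin3a level was 77.7 CPM against 933 in the rest, their Elfn1 level 0 against 250.2 CPM, and their Sox6 level 3831 against 1432 CPM. These are descriptions of few nuclei and carry no test.

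The share of Sst-gated nuclei among GABA nuclei was 6.7% (60 of 896; 95% interval 5.15% to 8.54%) in METH replicate 1 and 5.06% (33 of 652; 95% interval 3.51% to 7.03%) in METH replicate 2. It was 2.48% (23 of 928; 95% interval 1.58% to 3.7%) in saline replicate 1 and 6.16% (44 of 714; 95% interval 4.51% to 8.18%) in saline replicate 2. The groups overlapped, with saline replicate 1 alone below the rest. The means were 5.88% ± 1.16 and 4.32% ± 2.6 (SD, n = 2 each), a difference of 1.56 percentage points that did not exceed the spread (exact two-sided permutation p = 0.667; the design cannot reach 0.05). With each nucleus thinned to 1500 UMIs before gating the shares were 1.37%, 1.3%, 1.53% and 1.23%, from 6, 4, 7 and 4 nuclei, and the difference was -0.0489. Without saline replicate 1 it was -0.284, so the direction rests on the shallowest library.

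**Figure D4:**
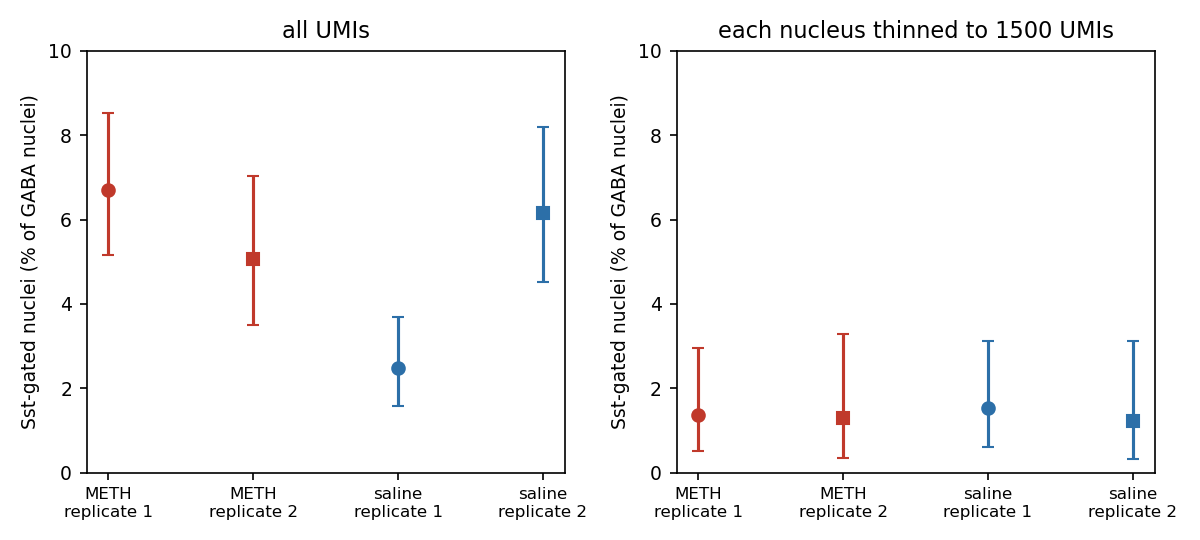
Sst-gated nuclei as a percentage of GABA nuclei (vertical axis) in each library (horizontal axis), with exact 95% intervals, for all UMIs on the left and for nuclei thinned to 1500 UMIs on the right; METH is red and saline blue. Saline replicate 1 is lowest at 2.48% on the left and not on the right, where all 4 lie between 1.23% and 1.53%.

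METH and saline were compared on the summed counts of the Sst-gated nuclei, to ask whether transcripts of this class differed after 7 days of the drug. Of 4189 genes tested, 0.0239% passed, which is 1 gene, Plcxd3, higher under METH. No gene was called lower by edgeR, where 104 higher and 78 lower genes had an unadjusted p under 0.05. DESeq2 called 0 genes, with 19 at an unadjusted p under 0.05. The sums rest on 23 to 60 nuclei a library.

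Plcxd3, a protein with a phospholipase C X domain, stood at 158, 195, 59.5 and 43.8 CPM. Both METH sums lay above both saline sums, a 3.58-fold difference (log2 fold change 1.84, SE 0.40, adjusted p 0.0491, edgeR). The UMIs came from few nuclei: 8 of 60, 6 of 33, 2 of 23 and 4 of 44 nuclei had any. In METH replicate 1 the top 2 nuclei held 17 and 15 of 47 UMIs, and in METH replicate 2 the top nucleus held 21 of 32, against 4 and 10 UMIs in all in the saline libraries. With each nucleus capped at 3 UMIs the log2 difference was 0.62 (adjusted p 0.9981). It was not called in 9 of 13 alternatives, among them DESeq2, other normalization factors (adjusted p 0.104) and leaving out METH replicate 1 (0.0825), METH replicate 2 (0.368) or saline replicate 2 (0.701).

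Htr2c, the serotonin 2C receptor, had the largest difference of the genes named for this comparison but did not pass. It stood at 278, 97.4, 14.9 and 43.8 CPM, with METH replicate 1 far above the rest and METH replicate 2 above both saline libraries (log2 fold change 2.45, SE 0.53, adjusted p 0.153, edgeR). Its log2 difference ran from 1.27 to 3.73 over 13 alternatives and passed in 7. Without METH replicate 1 it was 1.37 (adjusted p 0.9951), and with each nucleus capped at 3 UMIs 1.27 (adjusted p 0.9981). It passed without METH replicate 2 (adjusted p 2.25e-07), saline replicate 1 (0.00156) or saline replicate 2 (0.0205). A UMI was found in 9 of 60, 4 of 33, 1 of 23 and 4 of 44 nuclei, and in METH replicate 1 the top 3 nuclei held 24, 21 and 17 of 83 UMIs. The smallest p among lower genes belonged to Il1rapl2, a synaptic organiser, at 312, 414, 446 and 727 CPM (log2 fold change -0.83, SE 0.21, adjusted p 0.153), Tmtc1, a mannosyltransferase, at 90.5, 67, 208 and 179.7 CPM (log2 fold change -1.20, SE 0.34, adjusted p 0.246), and Dlx1, an interneuron homeobox factor, at 40.2, 48.7, 104 and 131 CPM (log2 fold change -1.50, SE 0.42, adjusted p 0.246). None of the 3 passed in edgeR. With each nucleus capped at 3 UMIs their log2 differences were -0.61, -1.09 and -1.45 (adjusted p 0.9981, 0.416 and 0.416). A UMI of Il1rapl2 was found in 17 of 60, 5 of 33, 4 of 23 and 14 of 44 nuclei. The top 2 nuclei held 41.9%, 75%, 70% and 46.4% of the Il1rapl2 UMIs. The rule for naming genes asked that the treatments not overlap, and both METH sums lay below both saline sums in 16.2% of the 4189 genes tested and above them in 16.4%. Il1rapl2 had a log2 difference of -0.33 without saline replicate 2 (adjusted p 0.906), -0.31 with equal numbers of nuclei (adjusted p 0.993) and -0.64 without METH replicate 1 (adjusted p 0.9951). It passed without saline replicate 1 (log2 -1.03, adjusted p 0.00296).

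The markers of the class itself did not pass between treatments. Grin3a stood at 798, 791, 922 and 1069 CPM (log2 fold change -0.35, SE 0.18, adjusted p 0.9995, edgeR), with both METH sums below both saline sums. Elfn1, at 208, 274, 223 and 254 CPM, had a log2 difference of -0.06 (SE 0.27), and Crhbp, at 121, 146, 74.3 and 127 CPM, of 0.21 (SE 0.34). Reln, Rspo2, a Wnt agonist, and Nos1 differed by 0.05 (SE 0.16), 0.01 (SE 0.25) and 0.53 (SE 0.43). Cst3, the protease inhibitor cystatin C, was at 218, 249.6, 134 and 127 CPM (log2 fold change 0.84, SE 0.29, adjusted p 0.664), and in the other GABA nuclei at 219, 233, 98.5 and 125 CPM. Pdyn, Crh, Calb2, Chodl, Npy, Mybpc1, Fos, Arc, Fkbp5, Drd1, Drd2 and Bdnf were below the filter for this comparison.

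No member of any of the 31 gene lists passed between treatments in edgeR, where 14 of 148 tested had an unadjusted p under 0.05. Over all genes tested it was 182 of 4189. Of the lists with 10 or more tested members, the 10 Sst markers had a median log2 difference of -0.0041, the 15 ionotropic glutamate receptor genes -0.14, the 11 GABA receptor genes 0.06, the 17 potassium channel genes -0.08, the 15 sodium, calcium and HCN channel genes -0.10 and the 16 adhesion genes 0.04. The median over all genes tested was -0.0017. The 8 tested mitochondrial genes all had negative differences, with a median of -0.35, and the largest difference among them was that of Mt-atp6 (log2 fold change -0.54, SE 0.27, adjusted p 0.9995). Of all 4189 genes tested, 2105 had negative differences. Saline replicate 2 had the largest mitochondrial sum of the 4 libraries. Only 2 activity-induced genes could be tested: Vgf stood at 87.2, 42.6, 89.2 and 140.2 CPM (log2 fold change -0.84, SE 0.39, adjusted p 0.9995) and Homer1 differed by -0.19.

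Among markers of other cells, the summed oligodendrocyte list did not overlap between treatments, and 2 of its 10 genes could be tested. Of all 4189 genes tested, 16.4% had both METH sums above both saline sums. Summed oligodendrocyte markers were at 362, 450.4, 223 and 127 CPM in the Sst-gated nuclei, above both saline values in both METH libraries, and at 342, 357, 304 and 237 CPM in the other GABA nuclei, with all 10 present in the Sst-gated nuclei. Summed astrocyte markers, of which 9 of 10 were present, were at 519.6, 609, 520.4 and 311 CPM, and excitatory markers, of which 8 of 8 were, at 704, 706, 922 and 548 CPM. Among their single genes Mbp, of myelin, had a log2 difference of 1.67 (adjusted p 0.227), Slc1a2, the glial glutamate transporter, of 1.92 (adjusted p 0.336) and Rorb, of layer 4 neurons, of 1.34 (adjusted p 0.9995) in edgeR, and none passed with all 4 libraries. Without saline replicate 1 Mbp was called higher under METH (log2 2.33, adjusted p 0.0257), in the same setting as Il1rapl2. Their part in the differences between treatments was not tested. A strict gate took only nuclei with no Slc17a7 or Adarb2 UMI. It also allowed at most 1 UMI over 9 markers of other cells and at most 3 times the median UMI count. Under it no gene passed in edgeR, and Plcxd3 kept a log2 difference of 1.80 (adjusted p 0.552). There Mbp was at 0.65 and Rorb at 2.41 (adjusted p 0.9996 for both). With each nucleus capped at 3 UMIs Mbp was at 0.83 and Rorb at 0.76 (edgeR adjusted p 0.9981 for both).

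Whether METH differed in its effect on Sst-gated and on other GABA nuclei was tested directly, as the interaction of treatment and nucleus group with the library as a block. Of 10598 genes tested, 0.0189% passed in edgeR: Htr2c (log2 fold change 2.38, SE 0.44, adjusted p 0.00109) and Plcxd3 (log2 fold change 1.93, SE 0.41, adjusted p 0.016), both with a more positive difference in the Sst-gated nuclei. In the other GABA nuclei Htr2c was at 109, 149, 110.2 and 117 CPM and Plcxd3 at 252, 205, 213 and 251 CPM, with overlapping groups for both. None was called in the negative direction by edgeR, where 146 had an unadjusted p under 0.05, and DESeq2 called 0 in either direction, with 73 at an unadjusted p under 0.05. Zmat4, a zinc finger protein, had a difference of -1.35 (adjusted p 0.354), Dlx1 of -1.64 (adjusted p 0.354) and Alcam, an adhesion protein, of -0.83 (adjusted p 0.756), the smallest p in that direction. With each nucleus capped at 3 UMIs no gene passed. None passed without METH replicate 1 or without saline replicate 2 either, and without METH replicate 1 the Htr2c difference was 1.02.

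**Figure D5:**
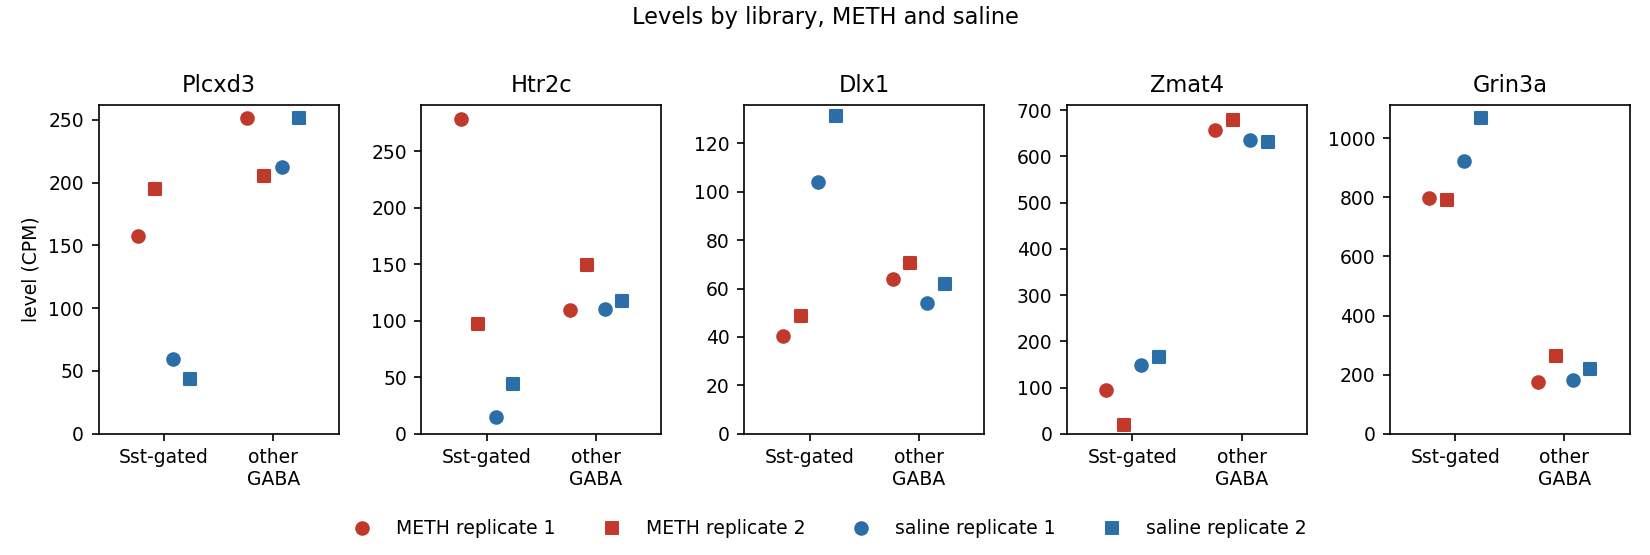
Level in CPM (vertical axes, each its own scale) of 5 genes in the Sst-gated and the other GABA nuclei (horizontal axis) of each library; METH is red, saline blue, circles replicate 1 and squares replicate 2. Plcxd3 and Htr2c are higher in both METH libraries within the Sst-gated nuclei and overlap in the others, where Plcxd3 lies between 205 and 252 CPM.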

How the data were processed

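Nuclei of orbitofrontal cortex were captured with 10x Genomics 3' chemistry (v3.1), per the labels' protocols. The deposited matrices of the 4 libraries hold UMI counts per gene and barcode, with no normalization, made with Cell Ranger 7.0.0, per the submitters' processing notes. The build they list is hg38, of human, although each of the 25399 identifiers in the files is a rat Ensembl identifier, so no rat build can be stated. Symbols and identifiers are other deposited columns, and 148 symbols shared by several identifiers were not used.

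Barcodes with under 500 genes (489, 357, 1552 and 264) or over 5% mitochondrial UMIs (12, 11, 13 and 32) were left out. No doublet caller was run; the caps of the gate and a strict gate took its place. Counts were summed per library and gate. The sums were tested with edgeR 4.0.16 (quasi-likelihood, robust, TMM factors, genes with low counts filtered, R 4.3.3), two-sided, with Benjamini-Hochberg adjustment over all genes tested, after a test on simulated data. The other GABA nuclei were held to the same Slc17a7 cap as the members; without it 1154 genes passed. The Pvalb, Vip and Lamp5 gates asked for at least 2 UMIs of that gene and at most 1 of Sst, with Pvalb and Vip otherwise at 0. Pvalb-gated nuclei had at most 1 Adarb2 UMI and Lamp5-gated ones at least 2. Fold changes are fitted values, except bounds and pooled ratios, which say so. DESeq2 1.42.0 was an alternative. Versions of the other tools were Python 3.11.15, NumPy 2.4.6, SciPy 1.17.1, pandas 2.3.3 and matplotlib 3.10.9.

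The members and the gene lists were chosen with earlier results of these data known. Genes were named by rule: called, not overlapping between treatments (or in 1 direction in all 4 libraries, at 20 CPM or more), with no placeholder name, the 16 highest and 10 lowest in the profile, 5 and 3 against each neighbouring gate, up to 4 per list by p, and 21 listed genes whatever their result. Some genes are not reported here. Of the list genes 18 had no single identifier in the files, Cort among them. The labels do not say that replicate numbers pair the libraries. Deviations of same-numbered libraries from their group means correlated at 0.0231, which with 2 libraries a group is a single value and cannot exclude pairing.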

Additional observations from a re-analysis of the deposited data

Results flagged for a closer look

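The difference between METH and saline was larger in the Sst-gated than in the other GABA nuclei for Htr2c and Plcxd3, by a test of the difference itself. The interaction was 2.38 on the log2 scale (SE 0.44, edgeR adjusted p 0.00109) for Htr2c. For Plcxd3 it was 1.93 (SE 0.41, edgeR adjusted p 0.016). Across 10 alternatives the Htr2c value ran from 1.02 to 3.75 and passed in 4, and the Plcxd3 value ran from -1.59 to 2.25 and passed in 4. With 1 library left out, Htr2c passed without METH replicate 2 alone (adjusted p 1.38e-07), and was at 1.02 without METH replicate 1. Plcxd3 passed without saline replicate 1 alone (adjusted p 0.0172, against 0.05995, 0.741 and 0.921 without METH replicate 1, METH replicate 2 and saline replicate 2). Both genes were found in few members, and a handful of nuclei held most of their UMIs.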

How the results depend on the processing

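Of the values of named genes recomputed under the alternatives, most kept their direction and their side of the threshold: 489 of 520 against the other GABA nuclei, 133 of 162 between treatments and 38 of 50 for the interaction, with no change in any of the 139 against the 3 neighbouring gates. The fit with the replicate number as a block called 5 genes between treatments against 1 in the fit without it. The labels do not say whether the numbers pair the libraries. The other counts between treatments were 0 with DESeq2, with RLE factors, with 4 or more Sst UMIs, with at least 1000 genes per nucleus, under the strict gate and with counts capped at 3 UMIs per nucleus (an alternative chosen after seeing the data), 2 without robust fitting and 3 with equal numbers of nuclei. Leaving out 1 library gave 1 to 7. For the interaction the count was 0 with DESeq2, with 4 or more Sst UMIs and with the cap, and leaving out 1 library gave 0 to 2, with no gene called in more than 1 of these fits. Against the other GABA nuclei 629 genes passed with DESeq2, 416 with 4 or more Sst UMIs, 139 after thinning (12 higher, 127 lower), 520 when gated before thinning (chosen after seeing the data), and 748 to 1031 with 1 library left out. Of the 139, 122 were also among the 1141, of which 841 were tested there and 686 kept their sign. Against the neighbouring gates DESeq2 called 176 (Pvalb) and 481 (Vip), and leaving out 1 library gave 130 to 379 for Pvalb.

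The difference in share turned from 1.56 to -0.0489 percentage points after thinning, and leaving out 1 library gave -0.284 to 3.4. Single genes changed sign as follows, in log2. Between treatments, Elfn1 went to 0.00633 with 4 or more Sst UMIs, 0.132 with equal numbers of nuclei, 0.027 with the replicate block and 0.0601 with capped counts, and ran from -0.217 to 0.131 with 1 library left out. Reln went to -0.053 capped and ran from -0.201 to 0.489 with 1 library left out. Rspo2 went to -0.0976 with equal numbers and -0.106 capped and ran from -0.154 to 0.203, and Crhbp to -0.0047 capped. Against the other GABA nuclei, Cst3 went to -0.0084 unfiltered, -0.0528 under the strict gate and -0.0079 when gated before thinning. Drd2 ran from -0.489 to 0.479 with 1 library left out, and Htr2c from -1.14 to 0.492, with -0.703 in DESeq2 and -1.05 thinned. Thinned, Nos1 went to -1.39 and Reln to -0.51. The Plcxd3 interaction was -1.59 with 4 or more Sst UMIs. The cause of these shifts was not tested. Counts were simulated for the treatment comparison, at 23 to 60 nuclei a library. Of 200 genes changed 2-fold (of 3904 tested) 60 were called, and of 200 changed 4-fold (of 3919 tested) 163. Beside them 8 and 6 unchanged genes were called. In the simulated interaction 6 of 200 genes changed 2-fold (of 10374 tested) and 91 of 200 changed 4-fold (of 10370 tested) were called. There 1 unchanged gene was called each time.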
